A study of Homo sapiens with 6 samples.

Results

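The tripartite motif (TRIM) genes encode a large family of proteins, most of them ubiquitin ligases, and are described here in HEK293, a cell line derived from human embryonic kidney, on 3 control and 3 treatment arrays. Members were the rows of the array table (transcript clusters, each a set of probes for 1 transcribed locus) whose annotated gene symbol was TRIM followed by digits, with an optional final letter. That rule found 88 of 33297 rows. Of these, 66 rows had 1 symbol and covered 54 genes, 12 were shared by several TRIM symbols, and 10 were shared by a TRIM symbol and a symbol outside the rule. The shared rows are given apart, because their probes do not separate the genes. Of the 73 protein-coding TRIM symbols in RefSeq, 54 had a row of their own, 14 were in shared rows, and TRIM23, TRIM51G, TRIM64, TRIM75 and TRIM77 were in no row.

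The study was an expression profile made to look for anti-HIV mediators that accompany transfection with an empty plasmid. Total RNA of HEK293 cells was read on Affymetrix Gene 1.0 ST arrays, 1 array per sample. The labels disagree about the groups: the series' design text sets untreated cells against cells given pCMV9, an empty vector, while each sample's source entry puts a transient vector in the control cells and a Neo vector in the treatment cells, so the groups are called control and treatment here. Dose, time after treatment and the origin of the replicates are not given. The p-values therefore reflect array-to-array spread alone, and that spread may be technical.

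A typical TRIM protein carries a RING domain, which transfers ubiquitin, followed by B-box zinc fingers and a coiled coil through which copies pair up. The C-terminal end differs between classes and chooses the target. The SPRY (also B30.2) domain binds viral capsids, antibodies or signalling proteins. In some members of another class, the plant homeodomain and bromodomain pair reads histones. Several members are interferon-stimulated and either bind incoming viruses directly or tag proteins of the RNA- and DNA-sensing pathways, and TRIM5 and TRIM22 are known for restricting retroviruses such as HIV.

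The 6 arrays had median intensities of 77.2 to 84.2. Each array's mean Pearson correlation with the others, over all rows on the log2 scale, was 0.963 to 0.978, lowest for treatment replicate 3. All 10 measured markers of HEK293 cells (of 11 listed) lay above the range of 360 olfactory receptor rows. Those rows served as a gauge of dim signal. Of 6 fibroblast and 6 muscle markers, 3 and 2 lay within that range, so lying above it was not particular to HEK293 markers. No HEK293 marker passed the test, beside 0.357% of all rows higher and 0.0150% lower in treatment. PAX2 was higher on every treatment array (log2 change 0.76), as were 7.47% of all rows. VIM, SALL1 and KRT18 were lower on every treatment array (-0.29, -0.26 and -0.23), as were 7.10% of all rows. The summed intensity of the HEK293 markers was 10247 to 11373 in control and 9275 to 10892 in treatment. Of 9 measured leukocyte markers, 6 lay within the dim range, among them PTPRC, the gene of the pan-leukocyte marker CD45, at 27.7, 20.6 and 22.04 in control and 8.45, 22.5 and 20.4 in treatment. CD4, also within it, was lower on every treatment array (log2 change -0.71), as were 7.10% of all rows, and did not pass. CD14 and CD79A lay above the range, at means of 182 and 178 in control and 212 and 159 in treatment, and did not pass. CD68, a lysosomal protein of macrophages, was the 1 leukocyte marker that rose, and the list's summed intensity was 533 to 675 in control and 694 to 920 in treatment. Without CD68 the summed intensity of the other 8 markers overlapped between groups, at 401 to 581 in control and 422 to 570 in treatment, and the median log2 change of all 9 was -0.05. The part of CD68 in the TRIM results was not tested. In such bulk RNA a change in the share of responding cells and a change in RNA per cell cannot be told apart.

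The members that rose in the treatment arrays were TRIM22, TRIM21, TRIM5, TRIM25, TRIM56, TRIM69 and TRIM14, by 2.20-fold to 24.6-fold in mean intensity. A row shared by TRIM6, TRIM34 and their read-through transcript rose as well. No TRIM row fell. "Rose" and "fell" mean a limma adjusted p under 0.05 over all 33297 rows, on log2(intensity + 16). By that rule 7 of 66 rows of 1 symbol rose, which are 7 of 54 genes, against 0.357% of all rows, and 0 fell, against 0.0150%. At an unadjusted limma p under 0.05 there were 9 of 66, in either direction, against 7.30% of all rows. Every treatment array lay above every control array for 10 of 66 rows (9 of 54 genes), against 7.47% of all rows, and below for 3 of 66 (2 of 54 genes), against 7.10%. The median log2 change was 0.08 over the 66 rows and 0.13 over the 54 genes, beside 0.01 over all rows. The median over the TRIM rows was not stable in sign: it was -0.05 without rows below the median intensity, where that of all rows was also -0.05. The 47 genes that did not pass had a median of 0.03, with 26 means higher and 21 lower in treatment. Of the 47, 11 lay within the dim range in both groups, and 10 of those 11 had the higher mean in treatment. The calls depended on the offset: with plain log2, or an offset of 1, TRIM22 was the 1 of these 7 genes that passed (adjusted p = 0.0196 and 0.00857).

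Upstream sequences of these genes are shown because the members that rose differ from one another in whether they hold the core of the interferon-stimulated response element, the DNA motif bound by interferon regulatory factors. The motif searched was GAAANNGAAA, on both strands, in RefSeq windows (GRCh38.p14) from 250 bases before to 50 after each transcription start, with the start base at 0. Capitals mark the match. Each sequence reads 5′ to 3′ on the gene's own strand, so a match on the opposite strand appears as its reverse complement. The first 4 lie directly before the starts of genes that rose or share the row that rose.
TRIM5, chr11:5685075-5685194, minus strand: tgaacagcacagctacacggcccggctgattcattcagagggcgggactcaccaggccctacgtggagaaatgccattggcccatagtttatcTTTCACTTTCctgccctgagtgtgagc
TRIM14, chr9:98119223-98119342, minus strand: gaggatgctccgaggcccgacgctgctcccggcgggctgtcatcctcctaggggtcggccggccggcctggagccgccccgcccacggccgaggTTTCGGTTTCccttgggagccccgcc
TRIM69, chr15:44736408-44736527, plus strand: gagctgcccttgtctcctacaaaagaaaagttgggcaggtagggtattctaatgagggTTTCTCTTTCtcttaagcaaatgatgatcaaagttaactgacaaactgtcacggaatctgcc
TRIM34, chr11:5624881-5625000, plus strand: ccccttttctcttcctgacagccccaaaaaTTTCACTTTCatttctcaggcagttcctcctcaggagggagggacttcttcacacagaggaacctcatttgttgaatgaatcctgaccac
TRIM21, chr11:4393666-4393689, minus strand: agcgGAAACTGAAAGTGAAAtagg
TRIM25, chr17:56914050-56914169, minus strand: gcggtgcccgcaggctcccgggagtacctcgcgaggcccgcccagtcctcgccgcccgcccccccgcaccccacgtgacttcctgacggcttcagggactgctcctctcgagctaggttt
TRIM56, chr7:101085361-101085480, plus strand: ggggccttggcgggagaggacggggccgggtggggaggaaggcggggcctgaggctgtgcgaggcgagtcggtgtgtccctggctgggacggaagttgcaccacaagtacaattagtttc
TRIM44, chr11:35662655-35662774, plus strand: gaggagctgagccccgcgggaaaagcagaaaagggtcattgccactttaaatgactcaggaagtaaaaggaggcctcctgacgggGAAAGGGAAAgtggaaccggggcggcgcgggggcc
TRIM26, chr6:30213565-30213620, minus strand: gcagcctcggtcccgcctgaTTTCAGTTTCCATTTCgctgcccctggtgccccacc
The match lay at -27 to -18 in TRIM5, -26 to -17 in TRIM14 and -62 to -53 in TRIM69. In TRIM34, whose row is shared, it lay at -90 to -81. TRIM21 held 2 overlapping matches just after its start, at 17 to 26 and 23 to 32, which together form the capital stretch. TRIM25 and TRIM56 are shown as genes that rose with no match in their windows. TRIM44 and TRIM26 are shown as genes with a match that did not pass: at -35 to -26 in TRIM44, and as 2 overlapping matches from -194 to -179 in TRIM26.

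Of the 7 genes that rose, 6 had a promoter window and 4 of them held the motif. TRIM22 had no entry in the promoter table. Of 36 genes that did not pass and had a window, 4 held it (TRIM26, TRIM44, TRIM2 and TRIM16). Over all RefSeq promoters it was present in 3.57% of 35116 windows and 4.38% of 27305 genes. These are matches of letters only.

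**Figure D1:**
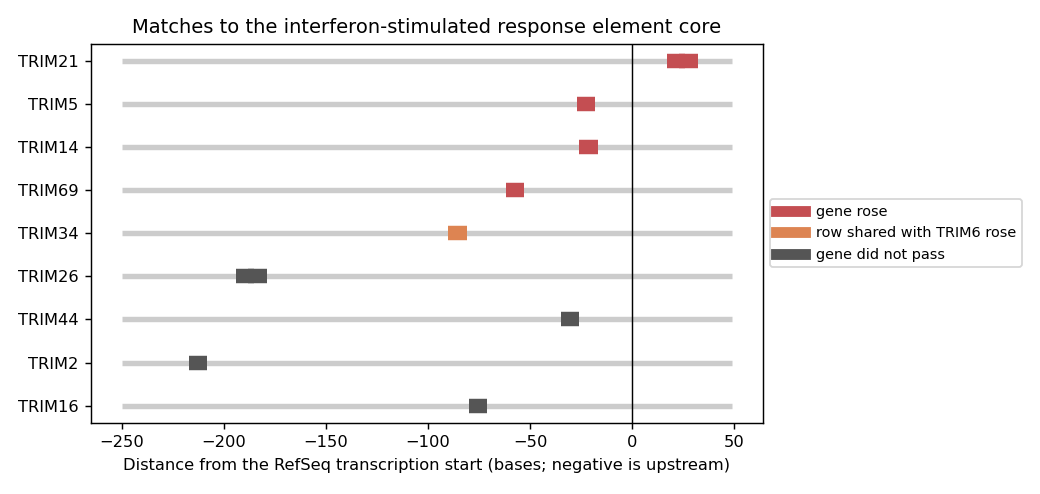
Matches to the interferon-stimulated response element core (coloured blocks) in promoter windows of TRIM genes (grey bars), by distance in bases from the RefSeq start. The matches of TRIM5, TRIM14, TRIM69 and TRIM21, which rose, lie within -62 to 32 bases of the start. Those of genes that did not pass run from -217 in TRIM2 to -26 in TRIM44.

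TRIM22 had the greatest increase in the family. It encodes a nuclear and cytoplasmic ubiquitin ligase that interferons induce and that has been reported to lower HIV transcription. Its intensity was 46.8, 54.3 and 68.02 in control replicates 1, 2 and 3 and 911, 1746 and 1499 in treatment replicates 1, 2 and 3. Every treatment array was far above every control array, and treatment replicate 1 was the lowest of its group. The means were 56.3 ± 10.8 (SD, n = 3) and 1385 ± 429 (SD, n = 3), and the log2 change was 4.23 ± 0.251 (SE, limma adjusted p = 1.04e-06). Its 95% interval, 3.69 to 4.78, lay above the interval of every other TRIM row, of which the highest upper bound was 2.55. The call held under all 18 alternatives, with log2 changes of 3.71 to 4.58.

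TRIM5 lies near TRIM22 on chromosome 11 and encodes the factor that binds the capsid of incoming retroviruses. Its intensity was 389, 425 and 451 in control and 918, 1263 and 1125 in treatment, so the groups were well apart. The mean went from 422 ± 31.5 to 1102 ± 174 (SD, n = 3 each), 2.61-fold. The log2 change was 1.34 ± 0.204 (SE, limma adjusted p = 0.00602). The call was lost when control replicate 1 (change 1.29, adjusted p = 0.0752) or treatment replicate 2 (change 1.24, adjusted p = 0.0762) was left out.

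The row shared by TRIM6, TRIM34 and TRIM6-TRIM34 lies in the same cluster. TRIM34 encodes another capsid-binding protein, and TRIM6 a ligase that acts in interferon signalling. The row's intensity was 23.4, 23.2 and 58.8 in control and 134, 225 and 172 in treatment. Control replicate 3 was above the other controls but below every treatment array. The control mean, 35.2, was below the 95th percentile of the olfactory receptor rows in control, 51.2, so the control side was dim. The log2 change was 1.96 ± 0.275 (SE, limma adjusted p = 0.00284), and the call was lost when control replicate 1 (adjusted p = 0.0724) or treatment replicate 3 (adjusted p = 0.0543) was left out. In RefSeq, TRIM5 overlaps TRIM6, TRIM34 and their read-through on the opposite strand, and TRIM22 follows TRIM34. Chromosome 11 held 10 TRIM genes with a row of their own, of which 3 rose. In the whole family 7 of 54 genes rose, and 0.357% of all rows did. The 3 on chromosome 11 were TRIM22, TRIM5 and, away from this cluster between olfactory receptor genes, TRIM21.

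TRIM21 encodes the cytosolic antibody receptor, which binds the constant region of antibodies on viruses that enter the cell and is also the Ro52 autoantigen. It gave 130, 182 and 176 in control and 491, 775 and 658 in treatment. The lowest treatment array was above the highest control. The means were 163 ± 28.5 and 642 ± 143 (SD, n = 3 each), 3.95-fold, and the log2 change was 1.87 ± 0.227 (SE, limma adjusted p = 8.12e-04). Its call held without any 1 array.

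**Figure D2:**
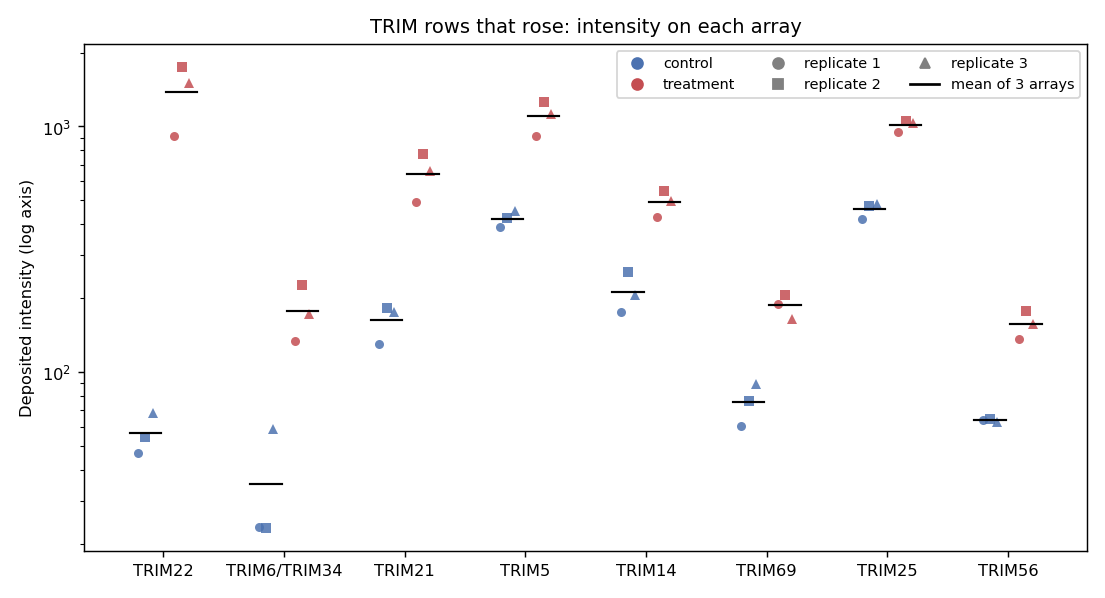
Deposited intensity on a log axis for the 8 TRIM rows that rose, with 3 control arrays (blue) and 3 treatment arrays (red) per row, marker shapes for replicate numbers and black lines at group means. In each of these rows all 3 treatment arrays lie above all 3 control arrays, and TRIM22 has the widest gap, from a mean of 56.3 to 1385.

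The other 4 genes rose by smaller amounts. TRIM25, which builds ubiquitin chains on the RNA sensor RIG-I and assists the antiviral protein ZAP, gave 421, 476 and 484 in control and 946, 1057 and 1031 in treatment. Both groups were tight and did not overlap. The means were 461 ± 34.4 and 1011 ± 58.2 (SD, n = 3 each), 2.20-fold, and the log2 change was 1.11 ± 0.193 (SE, limma adjusted p = 0.0186). TRIM14, an adaptor without a RING domain that sits at the mitochondrial protein MAVS, gave 176, 255 and 207 in control and 429, 548 and 499 in treatment. Its lowest treatment array was above its highest control, and its log2 change was 1.16 ± 0.211 (SE, limma adjusted p = 0.0266).

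TRIM56, a ligase reported to act in DNA and RNA sensing, gave 63.9, 64.7 and 62.8 in control and 136, 177 and 157 in treatment. The control arrays were almost level, and all treatment arrays were higher. Its log2 change was 1.11 ± 0.196 (SE, limma adjusted p = 0.0218), and it was the 1 gene that rose without a known C-terminal domain of the SPRY kind. TRIM69, a SPRY protein reported to restrict vesicular stomatitis virus, gave 60.3, 76.4 and 89.9 in control and 190, 206 and 165 in treatment. The groups did not overlap, and its log2 change was 1.16 ± 0.208 (SE, limma adjusted p = 0.0242). These 4 calls were close to the threshold. With an array left out the highest adjusted p was 0.191 for TRIM25, 0.258 for TRIM14, 0.254 for TRIM56 and 0.238 for TRIM69, each without treatment replicate 2, and the lowest change in these fits was 1.02, for TRIM56.

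The rows that rose shared an order over the treatment arrays. Treatment replicate 2 was highest in 8 of 8, the shared row included, and replicate 1 was lowest in 7 of 8, the exception being TRIM69, in which replicate 3 was lowest. Over all rows of the table, replicate 2 was the highest treatment array in 20.1%, replicate 1 was the lowest treatment array in 31.2%, and replicate 3 was the lowest in 43.5%. The other listed genes that rose were CD68, PML, RIGI, ISG15, UBE2L6, USP18, UBA7, HERC5 and IRF7. Replicate 1 was the lowest treatment array in each of them as well. Replicate 2 was highest in CD68, PML, RIGI and HERC5, and replicate 3 in the rest. The median of the 7 genes above the control mean, on the log2 scale, was 1.10 in treatment replicate 1, 1.32 in replicate 2 and 1.19 in replicate 3. Control replicate 1 was 0.19 below that mean.

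TRIM38, a SPRY ligase described as a brake on Toll-like receptor and tumour necrosis factor signalling, did not pass but had the lowest p of the genes that missed the threshold. It gave 262, 248 and 272 in control and 426, 577 and 506 in treatment. The groups did not overlap, with means of 261 ± 12.2 and 503 ± 75.5 (SD, n = 3 each) and the log2 change was 0.90 ± 0.201 (SE, limma adjusted p = 0.136). The adjusted p was 0.0444 when rows below the median intensity were left out, 0.0407 with 1 row per gene and 0.0366 with an intensity trend, and 0.0644 to 0.834 in the other alternatives.

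Of the other SPRY members, TRIM65, a ligase of the RNA sensor MDA5, had the lowest log2 change of the 54 genes. It gave 365, 276 and 295 in control and 222, 217 and 221 in treatment. All treatment arrays were below all controls, and the log2 change was -0.47 ± 0.199 (SE, limma adjusted p = 0.680). TRIM27, a RING protein first found fused to the RET kinase, was also lower on every treatment array, at 461, 470 and 480 in control and 390, 361 and 364 in treatment (-0.33 ± 0.189, adjusted p = 0.719). TRIM26, a ligase reported to act on IRF3, was higher on every treatment array, at 446, 464 and 383 in control and 491, 581 and 666 in treatment (0.41 ± 0.205, adjusted p = 0.698). None of these 3 passed. TRIM11, reported to clear misfolded proteins, had 0.29 ± 0.227 (adjusted p = 0.792), and TRIM62, described as a tumour suppressor, had -0.11 ± 0.210 (adjusted p = 0.936). Their groups overlapped.

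C-terminal classes were assigned from general knowledge of the family. Of 27 SPRY genes 6 rose, beside 7 of 54 in the family and 0.357% of all rows. A further 4 genes with COS, fibronectin and SPRY domains were counted as a class of their own, and 0 of them rose. The SPRY genes had a median log2 change of 0.24 and a range of -0.47 to 4.23. They included the dim genes TRIM15, TRIM50, TRIM51, TRIM60 and TRIM72, with changes of 0.18 to 0.33. Of 8 genes with no known C-terminal domain, 1 rose, TRIM56, and the median was -0.05. No gene of the other classes passed, but these held only 1 to 4 genes each. Of the 27 SPRY genes, 21 did not pass.

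**Figure D3:**
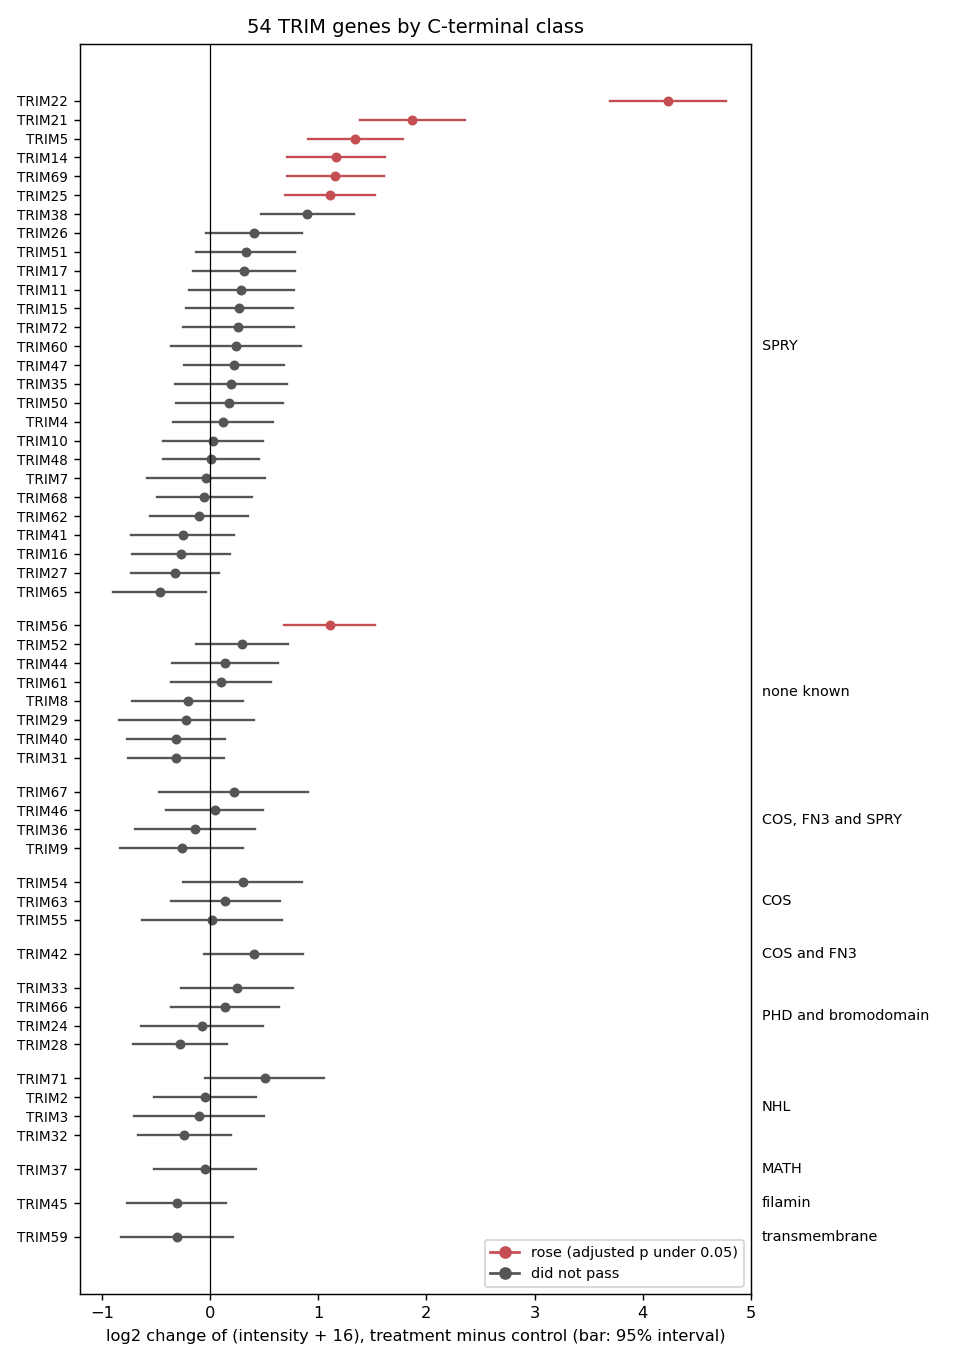
Log2 change, treatment minus control, of 54 TRIM genes on the log2(intensity + 16) scale, with 95% intervals, grouped by C-terminal class. The 7 genes that rose (red) are 6 SPRY genes, led by TRIM22 at 4.23, and TRIM56, while the intervals of most other genes span 0.

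The 4 chromatin members carry the plant homeodomain and bromodomain. TRIM28 (KAP1), the corepressor that zinc finger proteins recruit to silence retroelements, gave 1876, 1946 and 1787 in control and 1339, 1515 and 1793 in treatment. Treatment replicate 3 reached the control range while the other treatment arrays were lower, and the log2 change was -0.28 ± 0.200 (95% interval -0.71 to 0.15, limma adjusted p = 0.773). TRIM24, a coregulator of nuclear receptors, gave 496, 630 and 781 in control and 803, 635 and 407 in treatment. TRIM33, which acts with SMAD proteins, gave 606, 773 and 897 in control and 1084, 1002 and 650 in treatment. In both genes the groups overlapped, with control replicate 1 and treatment replicate 3 the lowest of their groups, and changes of -0.07 ± 0.262 (adjusted p = 0.968) and 0.25 ± 0.241 (adjusted p = 0.836). The class median was 0.03.

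The same arrays were lowest elsewhere. Among 36 TRIM genes that did not pass and lay above the dim range, 12 (33.3%) had control replicate 1 and treatment replicate 3 as the lowest arrays of their groups, beside 30.0% of 19379 such rows in the table. TRIM37, the MATH-domain ligase of peroxisomes and centrioles, was 1 of them, at 952, 1175 and 1376 in control and 1247, 1211 and 925 in treatment (-0.05 ± 0.218, limma adjusted p = 0.978). Its groups overlapped throughout.

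Of the 4 NHL genes, whose propeller domain binds RNA or proteins, none passed, and the class median was -0.08. TRIM71, the stem cell RNA regulator also called LIN41, had the highest change, with 109, 103 and 52.9 in control and 102, 126 and 159 in treatment (0.50 ± 0.257, limma adjusted p = 0.699). Its groups overlapped. TRIM32, a ligase mutated in a limb-girdle muscular dystrophy, had -0.24 ± 0.200 (adjusted p = 0.802). TRIM45, the member with a filamin-type domain, had -0.31 ± 0.212 (adjusted p = 0.757). TRIM59, which carries a transmembrane segment, gave 147, 165 and 162 in control and 145, 162 and 81.1 in treatment, with treatment replicate 3 apart from the other 5 arrays (-0.31 ± 0.240, adjusted p = 0.791). TRIM9, a neuronal ligase of the class with COS, fibronectin and SPRY domains, had -0.26 ± 0.263 (adjusted p = 0.840). TRIM8, a regulator of cytokine signalling without a known C-terminal domain, had -0.21 ± 0.237 (adjusted p = 0.863).

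**Figure D4:**
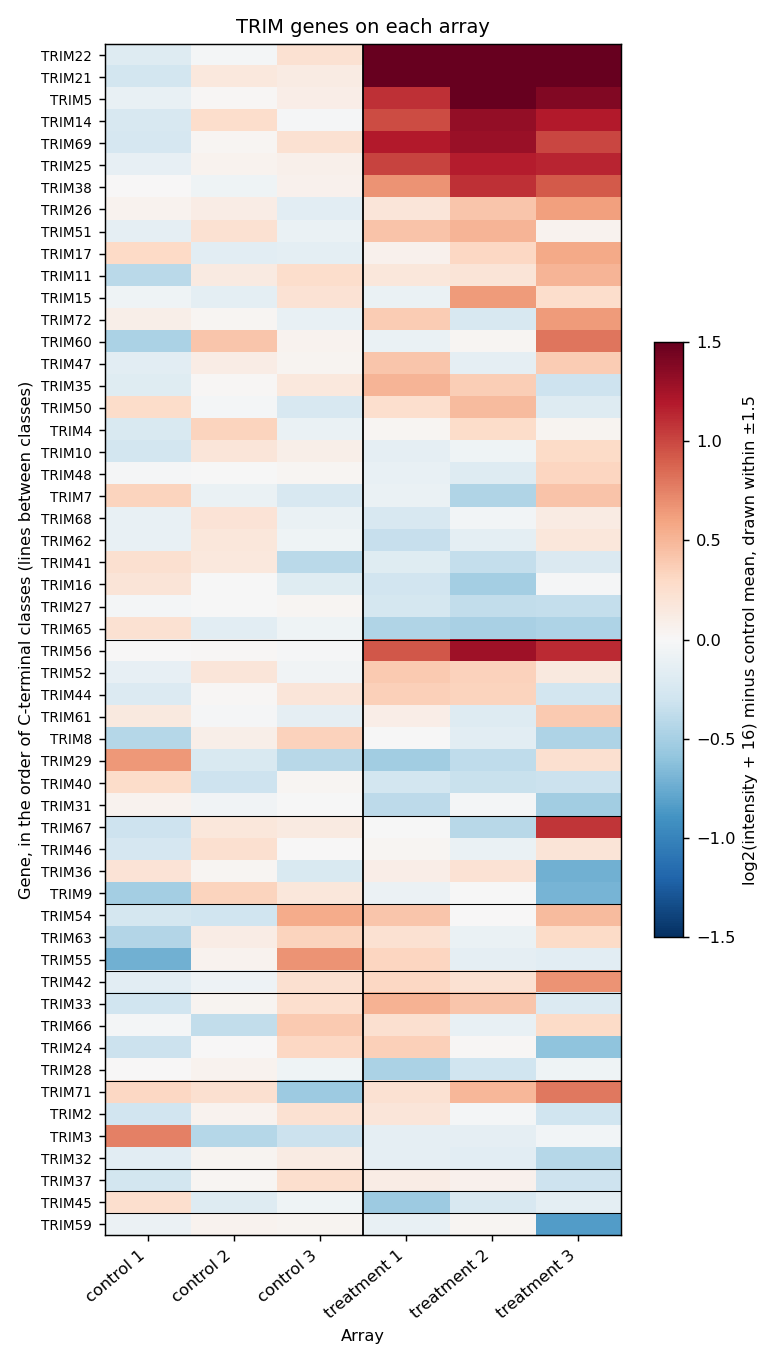
Each of the 54 TRIM genes on each of the 6 arrays, as log2(intensity + 16) minus the gene's mean over the controls, drawn within ±1.5 and in the order of C-terminal classes. The genes that rose are red on all 3 treatment arrays, and 12 of the 36 genes that did not pass and lay above the dim range have control 1 and treatment 3 as the lowest arrays of their groups.

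A set of 11 genes had means in both groups at or below the 95th percentile of the olfactory receptor rows, which was 51.2 in control and 67.4 in treatment. They were TRIM15, TRIM31, TRIM42, TRIM50, TRIM51, TRIM54, TRIM60, TRIM61, TRIM63, TRIM67 and TRIM72, several of them known from muscle or testis. Their log2 changes were -0.32 to 0.40, with 10 of the 11 means higher in treatment, and 0 passed. For 7 genes there was more than 1 row. Rows of TRIM26 (0.41 and 0.42) were alike, while the rows of TRIM51 ran from -0.10 to 0.33 and those of TRIM31 from -0.32 to -0.08. None of these rows passed, and 7 rows of 1 symbol were exact copies of another row of the gene, among them all further rows of TRIM15, TRIM27 and TRIM40.

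Of the 22 shared rows 1 rose, the TRIM6 and TRIM34 row, against 0.357% of all rows. The row of TRIM16 and its near copy TRIM16L gave 276, 216 and 179 in control and 141, 139 and 170 in treatment, lower on every treatment array (-0.51 ± 0.215, limma adjusted p = 0.674). TRIM16 alone had a change of -0.27. The rows of TRIM58, an erythroid ligase, with the olfactory receptor gene OR2W3 (3 rows, of which 2 hold identical values) were higher on every treatment array, with changes of 0.50 to 0.52 (adjusted p 0.674 to 0.680). The other shared rows had changes of -0.31 to 0.30 and did not pass: TRIM13 with KCNRG (-0.31 and -0.27), TRIM50 with TRIM73 and TRIM74 (-0.26 and -0.19), TRIM48 with TRIM49D1 and TRIM49D2 (-0.21), TRIM39 with its read-through (-0.13), TRIM64B with TRIM64C and TRIM64EP (-0.04), TRIM43 with TRIM43B (-0.02 to 0.03), and TRIM49 with TRIM49B and TRIM49C (0.23 to 0.30).

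Family members under other names were 10 genes. Of these 1 rose, against 0.357% of all rows, and 0 fell, against 0.0150%. The gene that rose was PML (TRIM19), the scaffold of nuclear bodies. It gave 146, 199 and 193 in control and 375, 502 and 492 in treatment. The groups did not overlap, and the log2 change was 1.27 ± 0.213 (SE, limma adjusted p = 0.0137), a call lost under 8 of 18 alternatives, among them each of the controls left out (highest adjusted p 0.136 without control replicate 1). TRIML2, FSD2 and CMYA5 had changes of 0.52, 0.44 and 0.47 and did not pass, and the list's median was 0.26. FSD2 and CMYA5 were among the 4 of these 10 genes that lay within the dim range.

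Proteins that TRIM ligases act on or work with formed a list of 37 genes, of which 32 were measured. Among them 7 rose, against 0.357% of all rows, and 0 fell, against 0.0150%. The remaining 25 did not pass, and the median log2 change was 0.12. RIGI, the RNA sensor that TRIM25 ubiquitinates, went from 282 ± 19.7 to 1761 ± 312 (SD, n = 3 each), a change of 2.56 ± 0.207 (SE, limma adjusted p = 1.90e-05), and ISG15, a ubiquitin-like modifier, from 55.1 ± 4.31 to 370 ± 108 (2.41 ± 0.227, adjusted p = 6.95e-05). The conjugation enzyme UBE2L6 had 3.09 ± 0.251 and the ISG15 protease USP18 had 1.84 ± 0.195, and UBA7, HERC5 and IRF7 also rose. The control means of UBE2L6 and UBA7, 50.7 and 16.6, were below the 95th percentile of the olfactory receptor rows in control, 51.2. Other partners of TRIM25 did not pass: ZC3HAV1, the gene of ZAP, had 0.59 with overlapping groups (adjusted p = 0.661), and RNF135, a further RIG-I ligase, had -0.11 (adjusted p = 0.944). MAVS, the adaptor at which TRIM14 sits, was lower on every treatment array, at 418, 594 and 547 in control and 372, 359 and 374 in treatment, and did not pass (-0.46 ± 0.205, adjusted p = 0.680). Cofactors of TRIM5 did not pass: PPIA (cyclophilin A) had -0.17, UBE2N had 0.15 and UBE2V1 had 0.07. Partners of TRIM28 in silencing did not pass either, with -0.13 for SETDB1, -0.23 for CBX1, 0.09 for CBX3 and -0.18 for CBX5.

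**Figure D5:**
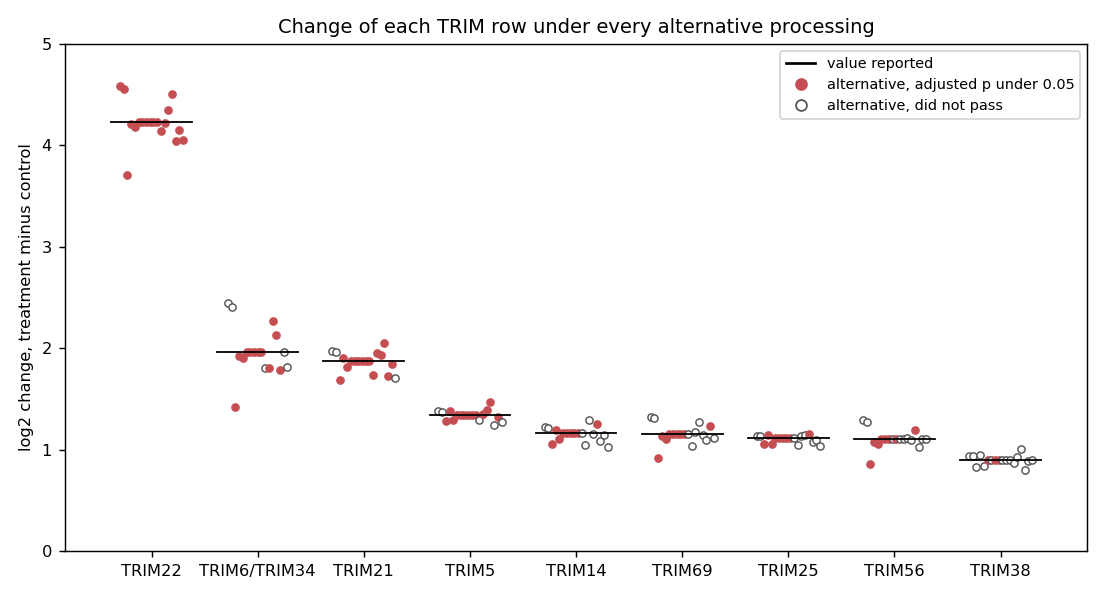
Log2 change of the 8 TRIM rows that rose and of TRIM38, as reported (black line) and under each alternative processing (points, filled where the adjusted p was under 0.05). Every point lies above 0, all points of TRIM22 are filled, and TRIM14, TRIM25, TRIM56 and TRIM69 each have 9 or 10 open points of 18.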

How the data were processed

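The deposited values were linear intensities, 1 per transcript cluster and array, and were tested as deposited. The submitters' processing notes name Partek; for background correction, normalization, probe summary and genome build, the method is not given in the sources used here. In the platform annotation of 2016, 19460 clusters carried 1 symbol, 1754 carried several and 12083 had none. A TRIM gene with several rows was represented by the row with the highest mean.

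Because intensities approach 0, an offset of 16 was added before log2, and changes of dim rows are understated. limma 3.58.1 (lmFit, eBayes; R 4.3.3) compared 3 treatment with 3 control arrays, two-sided and unblocked. Its p-values were adjusted over 33297 rows by Benjamini and Hochberg's method, with a threshold of 0.05. The number of arrays limits precision. The code was tested on simulated data. The same-numbered arrays' deviations correlated at -0.17, 0.08 and -0.36, and those of differently numbered arrays at -0.19 to 0.36. The labels do not say whether the numbers pair the samples, and so few correlations cannot decide it.

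Members, lists and tests were chosen with earlier results of these data known. Named were TRIM genes that passed, the 6 rows nearest to passing, a set of well-studied TRIM genes, all shared rows, the member of each class with the lowest p, and up to 4 of each list, with some partners added after their values were seen. Alternatives were other offsets, scalings, filters, priors, thresholds, 1 row per gene, the replicate block and each array left out. Leaving out both control replicate 1 and treatment replicate 3 was added after seeing the data.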

Additional observations from a re-analysis of the deposited data

How the results depend on the processing

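The count of TRIM rows of 1 symbol that rose was 7 as reported. It was 1 with plain log2, 1 with an offset of 1, 1 with control replicate 1 and treatment replicate 3 both left out (chosen after seeing the data), 3 at an adjusted p under 0.01, and 2 to 6 when single arrays were left out (lowest without control replicate 1 or treatment replicate 2, highest without treatment replicate 1). With the replicate block it was 3. There TRIM14, TRIM25, TRIM56 and TRIM69 lost their calls (limma adjusted p = 0.0666, 0.0908, 0.0980 and 0.0943). Whether the numbers pair the arrays is not known. It was 7 or 8 with an offset of 50, quantile normalization, median centring, filters on dim rows, 1 row per gene, a trend or robust prior, and an adjusted p under 0.10. With the trend 6 of the 7 were the same. No TRIM row of 1 symbol fell under any of these, and falls of shared rows were not counted there. The median change of TRIM rows, 0.0772, was -0.0462 without rows below the median intensity (all rows -0.0451), -0.0348 with both arrays left out (all rows 0.0277) and -0.0055 after quantile normalization (all rows -0.0115). Calls were lost under 0 of 18 alternatives for TRIM22, 3 for TRIM21, 5 for TRIM5, 9 for TRIM14, TRIM25 and TRIM69, and 10 for TRIM56. The shared TRIM6 and TRIM34 row lost its call under 5 of 17. TRIM21 lost its call with plain log2 (adjusted p = 0.125), an offset of 1 (0.0686) and both arrays left out (0.143). For single genes no called change turned its direction. The filters test fewer rows, and the fits with arrays left out test fewer samples. The cause of the shifts in calls and medians was not tested. Signal near background limits the 11 dim genes, for which no absence of change can be stated. It also limits the control side of the shared TRIM6 and TRIM34 row, with a control mean of 35.2.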
